A study of Mus musculus with 12 samples.

Results

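Peaks at microRNA genes were taken from a chromatin accessibility table of mouse CD4+ T cells. A peak counted as a member when it overlapped, or lay within 200 bp of, a gene that the mouse RefSeq annotation (build mm10) lists as a microRNA. The rule used positions and no measured value. It found 116 of the 48443 peaks, beside 127 of the 1228 annotated microRNA genes, and 95 of the 116 peaks overlapped such a gene. The widest gap inside the rule was 198 bp, at Mir3060, and the nearest gene left outside it was Mir6921, at 259 bp.

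The table comes from ATAC-seq, in which the transposase Tn5 cuts and tags open DNA. Naive CD4+ T cells from the spleens of C57BL/6 mice were activated with plate-bound antibodies to CD3 and CD28 (1 µg/ml each). They were cultured for 68 hours towards non-pathogenic Th17 cells (Th17n), with IL-6 at 25 ng/ml and TGF-beta1 at 2 ng/ml, or towards induced regulatory T cells (iTreg), with TGF-beta1 at 2 ng/ml and no IL-6 listed. Each lineage received vehicle or 100 µM DFMO, a blocker of ornithine decarboxylase, the enzyme that starts polyamine synthesis. Each of the 4 groups held 3 libraries, numbered for animals 1 to 3, so there were 12 libraries. The cells were wild-type cells differentiated in culture, and the labels name no transgene. A value sums over all cells of a library, so fewer open cells and less opening per cell could not be told apart.

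A microRNA gene is transcribed into a long primary transcript, from which the nuclear enzyme Drosha cuts a hairpin. Dicer then trims the hairpin to a short duplex, and one arm is loaded into an Argonaute protein, where bases 2 to 8 (the seed) pair with target messages. Many microRNA genes sit inside or beside protein-coding genes, so an open site there may serve the host, the microRNA or both, and ATAC-seq does not measure the microRNA itself. In T cells, miR-150, miR-142, miR-155 and let-7 are well-known regulators of maturation and effector function, and miR-210 is the classic microRNA induced by low oxygen.

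Sequences are given for part of the microRNAs whose peaks passed with DFMO. Among those not shown are Mir5136 and Mir7045, which passed in both lineages. Also given are 2 regulators of T cells that differed between lineages with DFMO and did not pass with vehicle. Only the 3p arm of Mir150 was available. RefSeq sequences (GRCm38.p6) matched 116 of the 127 genes and gave 179 mature arms. Capitals mark the seed. miR-132-3p and miR-212-3p, encoded side by side under 1 peak, share the seed AACAGUC, which no other arm of the table carries. miR-762 and miR-7648-3p, from different chromosomes, share GGGCUGG.
miR-210-5p: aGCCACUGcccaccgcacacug
miR-210-3p: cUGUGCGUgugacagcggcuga
miR-132-5p: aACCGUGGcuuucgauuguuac
miR-132-3p: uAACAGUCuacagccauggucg
miR-212-5p: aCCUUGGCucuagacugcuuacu
miR-212-3p: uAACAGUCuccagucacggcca
miR-361-5p: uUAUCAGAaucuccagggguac
miR-361-3p: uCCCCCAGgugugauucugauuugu
miR-6392-5p: uCUGGCGCccugguccugucagc
miR-6392-3p: gACGCAGGuuugccggguccucu
miR-1983: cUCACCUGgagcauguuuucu
miR-484: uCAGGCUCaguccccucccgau
miR-3102-5p: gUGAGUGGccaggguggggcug
miR-3102-3p: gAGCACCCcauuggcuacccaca
miR-1934-5p: uCUGGUCCccugcuucguccucu
miR-1934-3p: aGGAUGACgguggggcugguga
miR-5130: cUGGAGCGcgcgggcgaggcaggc
miR-574-5p: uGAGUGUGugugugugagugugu
miR-574-3p: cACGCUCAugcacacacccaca
miR-762: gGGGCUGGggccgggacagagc
miR-7648-3p: aGGGCUGGgcccgggacgcgg
miR-150-3p: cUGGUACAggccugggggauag
let-7i-5p: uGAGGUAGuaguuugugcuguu
let-7i-3p: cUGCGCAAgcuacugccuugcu

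The hairpins of the 3 best-known microRNAs in the DFMO results are shown with their mature arms in capitals. The Mir210 hairpin lies at chr7:141221384-141221493 on the minus strand, 54 bp from its peak. Both other hairpins lie on the plus strand inside 1 peak, Mir212 at chr11:75173388-75173478 and Mir132 at chr11:75173682-75173747.
Mir210 hairpin: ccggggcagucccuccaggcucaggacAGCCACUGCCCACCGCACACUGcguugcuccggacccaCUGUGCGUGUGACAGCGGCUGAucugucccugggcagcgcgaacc
Mir212 hairpin: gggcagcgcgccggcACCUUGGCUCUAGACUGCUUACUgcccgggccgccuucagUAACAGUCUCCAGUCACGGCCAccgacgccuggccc
Mir132 hairpin: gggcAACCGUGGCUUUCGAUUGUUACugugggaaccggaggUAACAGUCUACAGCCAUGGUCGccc
The Mir1983 hairpin (chr13:21896918-21897049, minus strand) is of another kind. It holds a whole annotated tRNA gene, n-TItat14, shown in capitals.
Mir1983 hairpin: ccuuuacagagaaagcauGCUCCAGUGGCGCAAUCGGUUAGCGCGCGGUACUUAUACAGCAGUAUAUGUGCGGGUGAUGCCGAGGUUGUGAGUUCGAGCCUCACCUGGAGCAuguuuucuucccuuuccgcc
The mature miR-1983 begins inside the tRNA and runs past its end. The word GUUCGANNC, the core of the internal promoter box of tRNA genes, was found on the given strand in 5 of 1005 mouse hairpins (0.498%), and this was 1 of them.

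The members were wide and open. Their median width was 913 bp (185 to 2846 bp), against 480 bp for all peaks. Their median accessibility was 34.9 CPM (counts per 1000000 of a library's scaled total), with a range of 0.473 to 286 CPM, against 10.0 CPM. Of the 116, 67 (57.8%) lay within 1 kb of an end of a protein-coding gene, where 25.3% of all peaks lay. Another 29 lay inside a coding gene and 20 outside coding genes. The 5 highest by mean were Mir7653 at Nek8 and Tlcd1 (286 CPM), Mir7238 at Ankrd10 (203 CPM), Mir6974 at Lta (161 CPM), Gm38670 at Hspb6 and Proser3 (159 CPM) and Mir7687 inside Gse1 (156 CPM). Mir7687, Mir7653 and Mir7238 were also the widest, at 2846, 2789 and 2015 bp.

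Relative to the 113 annotated hairpins beside members, the peak covered the hairpin in 79 cases, part of it in 13, and stood beside it in 21. The centre of the peak lay upstream of the hairpin's 5′ end for 61 and downstream for 52. Members took 0.482% to 0.490% of counts in Th17n vehicle, 0.514% to 0.520% in Th17n DFMO, 0.572% to 0.586% in iTreg vehicle and 0.563% to 0.582% in iTreg DFMO. Both iTreg groups stood above both Th17n groups on this share, with no overlap. Most members lay at coding gene ends, and such peaks at large were more often lower in Th17n cells, as given below. The share was therefore not shown to be particular to the members.

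Total counts ran from 1020937 to 6496550 per library, which limits the precision of low peaks in the shallow libraries. The lineage labels were checked on marker peaks. The peak at the start of Il17a, the signature Th17 cytokine, averaged 22.3 CPM in Th17n vehicle and 0.850 CPM in iTreg vehicle. The 1 peak at Foxp3, the defining factor of regulatory T cells, went against the labels, at 15.7 CPM in Th17n vehicle and 4.39 CPM in iTreg vehicle. The 27 peaks of the Treg list, which holds Foxp3, summed to 672 to 721 CPM in Th17n vehicle and 698 to 748 CPM in iTreg vehicle, ranges that overlap. The 20 peaks of the Th17 list summed to 356 to 371 CPM in Th17n vehicle and 161 to 237 CPM in iTreg vehicle. Among other cell types, the 20 peaks of the B cell list, all at Cd79a, Pax5 and Ebf1, summed to 215 to 243 CPM in Th17n vehicle and 135 to 170 CPM in iTreg vehicle. The higher sum came from Ebf1. The Pax5 peaks went the other way, at 5.43, 0.698 and 14.8 CPM in Th17n vehicle and 9.95, 2.45 and 27.0 CPM in iTreg vehicle. The Cd79a peak averaged 21.2 CPM in Th17n vehicle and 20.4 CPM in iTreg vehicle. No peak used here lay at Cd79b, Ms4a1, Lyz2, Cd8a, Nkg7 or Ncr1, and the part of other cell types in the lineage differences was not tested.

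Of the 116 members, 109 passed the filter on low counts and were tested. The other 7 (Mir5126, Mir152, Mir3069, Mir5125, Mir6993, Mir124a-3 and Gm23450) averaged 0.473 to 2.63 CPM. Of the tested members, 92 stood above the filter in each of the 4 groups, and 6 did so in 1 group only, where a difference was built in. The 2 that did so in 2 groups were Mir6964, in Th17n cells, and Mir6998, in iTreg cells. A further 7 did so in 3 groups, and 2 in none. Among the 7 were Mir1983, which did not in Th17n vehicle, and Mir361, which did not in iTreg DFMO. A member passed a comparison when edgeR's quasi-likelihood test, adjusted by Benjamini-Hochberg over all tested peaks, gave an adjusted p under 0.05.

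DFMO changed a minority of the members, in both directions. In Th17n cells 9 of the 109 rose and 4 fell, where 8.78% of all tested peaks passed in either direction (4.5% higher, 4.28% lower). In iTreg cells 6 rose and 8 fell, where 8.56% of all tested peaks passed (3.84% higher, 4.72% lower). The median log2 change of members was 0.13 in Th17n cells, against 0.011 for all tested peaks, and 0.029 in iTreg cells, against −0.009. For all tested peaks at coding gene ends, where most members lay, the medians were 0.084 and 0.036. At an unadjusted p under 0.05 the counts of members were 32 and 27, against 10138 and 9963 of all 43726 tested peaks.

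The 2 DFMO comparisons share no library, though their libraries come from the same animals. Mir1983, Mir484 and Mir5136 rose in both lineages, and Mir210, Mir574 and Mir7045 fell in both. No member passed in opposite directions, and 88 passed in neither. The matching counts over all tested peaks were not taken, so this overlap is no result about the members. The peaks that passed in Th17n cells alone were Mir1934, Mir5133, Mir1900, Mir2861 with Mir3960, Gm38670, Mir6974 and Mir5130. Those that passed in iTreg cells alone were Mir3102, Mir1893, Mir7648, Mir361, Mir6392, Mir132 with Mir212, Mir1199 and Mir762.

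**Figure D1:**
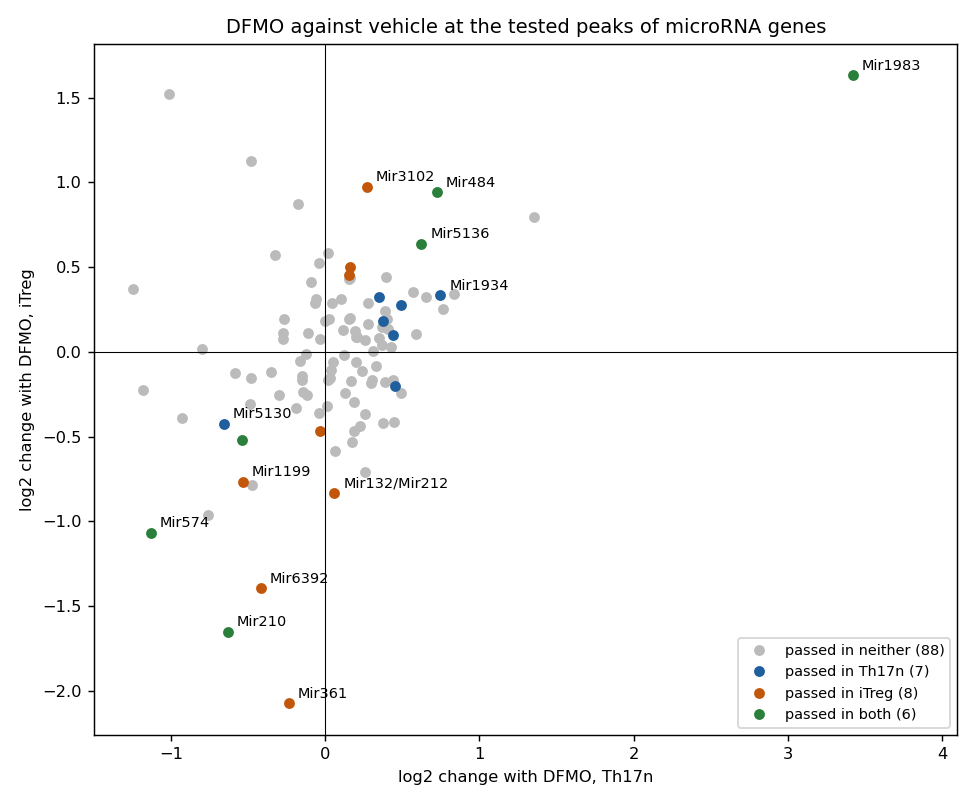
Log2 change with DFMO in Th17n cells (x axis) and in iTreg cells (y axis), 1 point for each of the 109 tested peaks at microRNA genes, coloured by the comparison in which the adjusted p was under 0.05. Mir1983 stands alone at the upper right, and Mir361, Mir210 and Mir6392 lie lowest on the iTreg axis.

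Fewer members passed when the difference between the 2 DFMO effects was tested. It passed for 3 of the 109 (Mir361, Mir210 and the Mir132 and Mir212 peak), each with the more negative effect in iTreg cells, where 1.31% of all tested peaks passed (0.835% higher, 0.478% lower). At an unadjusted p under 0.05 there were 18 members, against 6094 of all 43726 tested peaks. These 3 calls were not stable, as given with each peak below. For the other members, passing in 1 lineage and not in the other was no evidence that the effects differed.

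The Mir210 peak (chr7:141221547-141222431) lay upstream of the hairpin and outside coding genes. For animals 1, 2 and 3 it held 133, 143 and 144 CPM in iTreg vehicle and 41.6, 67.2 and 28.6 CPM in iTreg DFMO. In Th17n cells it held 124, 113 and 98.7 CPM with vehicle and 86.9, 70.3 and 52.5 CPM with DFMO. Every DFMO library was below every vehicle library of its lineage. The log2 change was −1.65 (SE 0.17, adjusted p = 1.1e-08) in iTreg cells and −0.63 (SE 0.17, adjusted p = 0.011) in Th17n cells. The effect in Th17n cells minus that in iTreg cells was 1.02 (SE 0.24, adjusted p = 0.019).

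The fall of Mir210 in iTreg cells passed in each of the 6 alternative fits and each of the 12 fits without 1 library. In Th17n cells the call ended with DESeq2 (adjusted p = 0.13) and without the Th17n DFMO library of animal 3 (adjusted p = 0.083). The difference between lineages did not pass with DESeq2, after thinning all libraries to the lowest total, or in 6 of the 12 fits without 1 library. These were animals 1 and 3 of iTreg DFMO, animals 1 and 2 of Th17n DFMO and animals 2 and 3 of Th17n vehicle (adjusted p 0.059 to 0.19). Of the 3 other peaks within 20 kb, the one at Lmntd2 and Rassf7 fell in iTreg cells by 0.42 on the log2 scale (SE 0.13, adjusted p = 0.039). No other neighbour passed in either lineage.

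The peak over Mir132 and Mir212 (chr11:75172573-75173812) lay between Hic1, a transcriptional repressor, and Ovca2. Both microRNAs are transcribed together and are known as targets of the factor CREB. The peak held 61.6, 65.1 and 74.2 CPM in iTreg vehicle and 33.1, 43.0 and 37.3 CPM in iTreg DFMO, and these groups did not overlap. In Th17n cells it held 56.6, 48.9 and 52.7 CPM with vehicle and 55.6, 59.2 and 46.1 CPM with DFMO, and the groups overlapped. The change on the log2 scale was −0.83 (SE 0.16, adjusted p = 0.00075) in iTreg cells and 0.06 (SE 0.16, adjusted p = 0.88, 95% interval −0.27 to 0.39) in Th17n cells.

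The iTreg call at Mir132 and Mir212 held in every alternative fit and without any single library. The difference between the effects, 0.89 (SE 0.23, adjusted p = 0.037), passed under 1 of 5 alternatives and in 3 of the 12 fits without 1 library. It was lost without animals 1 and 3 of iTreg DFMO, animals 2 and 3 of iTreg vehicle, animals 1 and 2 of Th17n DFMO or any Th17n vehicle library (adjusted p 0.071 to 0.15). The Th17n value changed sign in some of these fits. Among 10 tested neighbours, a Hic1 peak 1663 bp away fell in iTreg cells by 0.45 and a peak inside Smg6 fell by 0.68 on the log2 scale (adjusted p = 0.038 and 0.027). A peak at Ovca2 and Dph1 rose in Th17n cells by 0.72 (adjusted p = 0.0066).

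Mir361 lies inside Chm, which encodes the Rab escort protein REP-1, on the X chromosome (chrX:113074730-113075648). Its peak held 11.9, 9.55 and 12.5 CPM in iTreg vehicle and 4.82, 1.98 and 1.85 CPM in iTreg DFMO. It held 28.3, 38.8 and 33.5 CPM in Th17n vehicle and 27.0, 35.4 and 24.7 CPM in Th17n DFMO. Every iTreg DFMO library was below every iTreg vehicle library, while the Th17n groups overlapped. On the log2 scale the change was −2.07 (SE 0.39, adjusted p = 0.00038) in iTreg cells and −0.24 (SE 0.25, adjusted p = 0.62) in Th17n cells. Not every iTreg DFMO library stood above the filter on low counts, which limits how the size of the iTreg change can be read.

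The iTreg call at Mir361 held without any single library and was lost after thinning to the lowest total (adjusted p = 0.13). The difference between the effects was 1.84 (SE 0.47, adjusted p = 0.032). It was lost after thinning (adjusted p = 0.54) and without animal 3 of either iTreg group, animals 1 or 2 of Th17n DFMO or any Th17n vehicle library (adjusted p 0.059 to 0.19). Neither tested neighbour within 20 kb, both inside Chm, passed in a DFMO comparison.

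**Figure D2:**
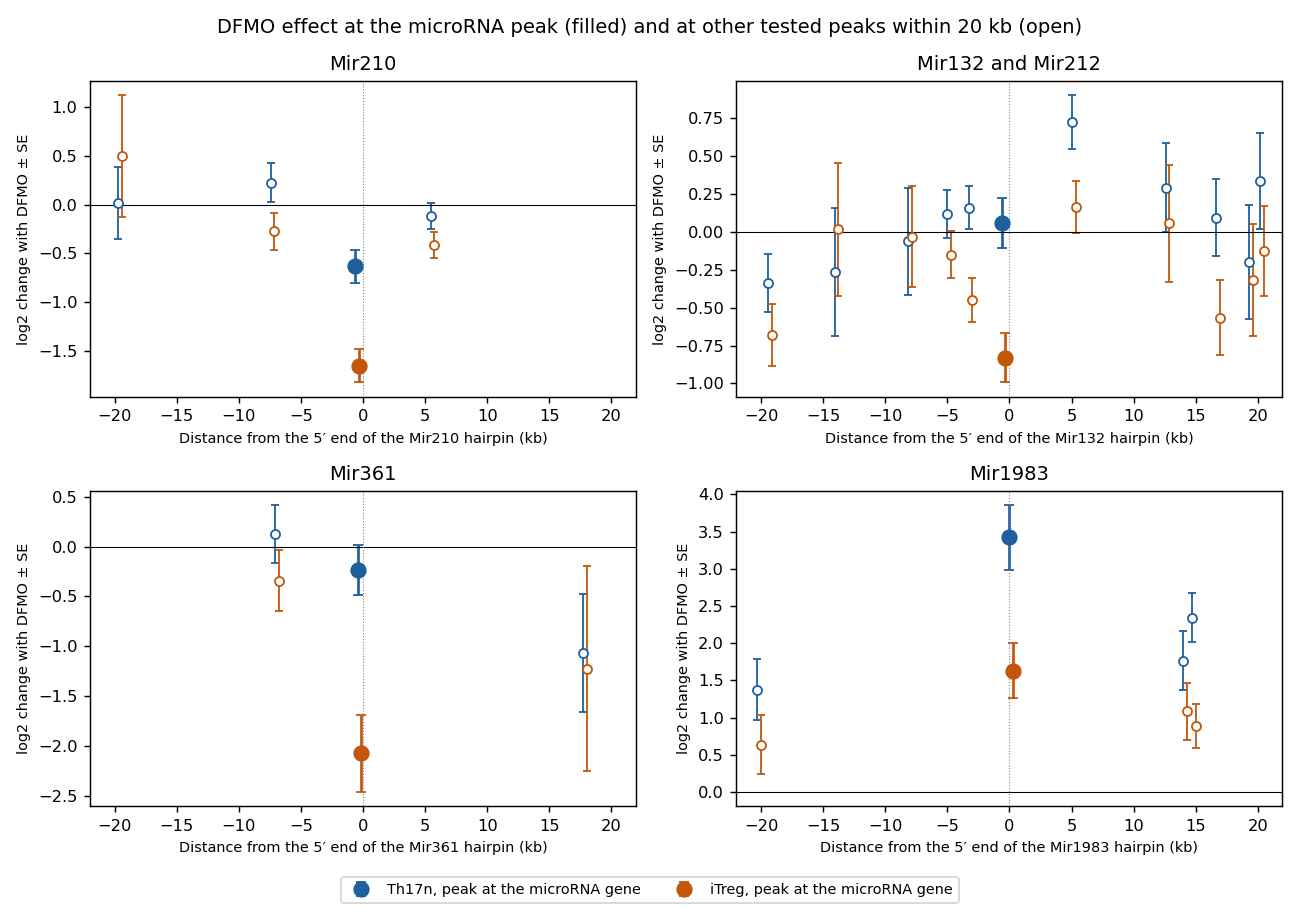
Log2 change with DFMO (± SE) at the microRNA peak (filled) and at other tested peaks within 20 kb (open), against the distance of the peak's centre from the 5′ end of the hairpin, with positive values downstream. Points of the 2 lineages are offset by 0.3 kb so that both can be seen. The iTreg change at Mir210 (−1.65) and Mir361 (−2.07) is below that of the other tested peaks drawn beside them, while all 3 neighbours of Mir1983 rose in Th17n cells.

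Mir6392 lies at the start of Pnpla3, which encodes a lipase of lipid droplets. Its peak (chr15:84167648-84169096) held 75.1, 71.1 and 86.0 CPM in iTreg vehicle and 25.9, 36.1 and 26.8 CPM in iTreg DFMO. The groups did not overlap, and the log2 change was −1.39 (SE 0.19, adjusted p = 3.7e-06). In Th17n cells it held 41.5, 44.5 and 51.5 CPM with vehicle and 29.0, 27.3 and 51.9 CPM with DFMO. The third DFMO library was the highest of the 6, and the change of −0.42 (SE 0.20) did not pass (adjusted p = 0.19). The iTreg call held in every other fit, and the table had no other tested peak within 20 kb.

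The Pnpla3 promoter window (chr15:84167566-84167865, plus strand, RefSeq GRCm38.p6) is shown because the peak covers its start site. Capitals mark the word GGGCGG on either strand, and likewise the box CCAAT and the word TGACGTCA.
Pnpla3 promoter: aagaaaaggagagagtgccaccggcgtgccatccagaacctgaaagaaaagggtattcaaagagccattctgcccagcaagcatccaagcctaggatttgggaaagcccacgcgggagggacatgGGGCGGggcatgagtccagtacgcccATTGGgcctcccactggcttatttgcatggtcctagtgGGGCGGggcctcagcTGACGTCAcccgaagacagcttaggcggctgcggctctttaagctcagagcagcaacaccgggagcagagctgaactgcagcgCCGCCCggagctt
It holds TGACGTCA once, a word found in 1.79% of 32851 mouse promoter windows. CCAAT occurs once and GGGCGG 3 times, words found in 37.4% and 35.7% of the windows. A match is a description of letters and not of a bound site.

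Mir574 lies in Fam114a1 near the start of Tlr6, a sensor of bacterial lipopeptides. Its peak held 21.8, 16.7 and 18.7 CPM in iTreg vehicle, 10.8, 6.92 and 9.24 CPM in iTreg DFMO, 20.8, 14.5 and 23.5 CPM in Th17n vehicle and 7.16, 10.2 and 9.08 CPM in Th17n DFMO. DFMO libraries were below vehicle libraries in both lineages without overlap. The log2 change was −1.13 (SE 0.32, adjusted p = 0.018) in Th17n cells and −1.07 (SE 0.31, adjusted p = 0.023) in iTreg cells. The Th17n call was lost without animal 1 of Th17n DFMO or animal 3 of Th17n vehicle (adjusted p 0.10 to 0.13). The iTreg call was lost without animals 2 or 3 of iTreg DFMO or animal 3 of iTreg vehicle (adjusted p 0.072 to 0.089) and after thinning (0.090). Of 4 tested neighbours within 20 kb, 1 inside Tlr6, 7971 bp away, fell in Th17n cells from 56.8 to 18.9 CPM. The log2 change of this neighbour was −1.56 (SE 0.22, adjusted p = 6.0e-06) there and −0.32 (adjusted p = 0.45) in iTreg cells. The difference between its effects was −1.24 (SE 0.33, adjusted p = 0.041).

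Of the remaining peaks that fell, Mir5130 at the start of Kctd12 held 116, 85.1 and 79.3 CPM in Th17n vehicle and 58.2, 57.1 and 56.4 CPM in Th17n DFMO. The groups did not overlap, and the change was −0.66 (SE 0.15, adjusted p = 0.0034), a call held in every other fit. In iTreg cells its change was −0.42 (SE 0.14, adjusted p = 0.053). Mir1199 at Misp3 fell in iTreg cells by 0.76 (SE 0.20, adjusted p = 0.013), a call lost after thinning and without animal 3 of either iTreg group (adjusted p 0.054 to 0.19). Mir762 at Bcl7c, a gene of the BAF remodelling complex, fell in iTreg cells by 0.47 (SE 0.13, adjusted p = 0.022), lost without animals 1 or 3 of iTreg DFMO or animal 3 of iTreg vehicle (0.11 to 0.19).

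Mir7045 lies in Chd4, which encodes the ATPase of the NuRD remodelling complex. Its peak held 48.1, 53.6 and 51.2 CPM in Th17n vehicle and 37.7, 36.6 and 30.5 CPM in Th17n DFMO, and 61.6, 56.4 and 55.3 CPM in iTreg vehicle and 41.0, 33.1 and 45.3 CPM in iTreg DFMO. Neither pair of groups overlapped. The change on the log2 scale was −0.54 (SE 0.18, adjusted p = 0.042) in Th17n cells and −0.52 (SE 0.17, adjusted p = 0.045) in iTreg cells. Both calls were fragile. The Th17n call was lost without any Th17n DFMO library, animals 2 or 3 of Th17n vehicle or animal 2 of iTreg vehicle (adjusted p 0.055 to 0.14), and after thinning (0.097). The iTreg call was lost in 5 of 6 alternative fits and 10 of the 12 fits without 1 library, those without animal 3 of Th17n DFMO and animal 1 of Th17n vehicle being the exceptions (adjusted p up to 0.44).

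The largest rise was at Mir1983 (chr13:21896723-21897117). Its peak held 0.944, 1.37 and 2.00 CPM in Th17n vehicle and 15.3, 14.1 and 22.1 CPM in Th17n DFMO. In iTreg cells it held 4.14, 4.22 and 5.61 CPM with vehicle and 15.7, 18.3 and 11.1 CPM with DFMO. The 2 DFMO groups overlapped each other and lay wholly above both vehicle groups. On the log2 scale the change was 3.42 (SE 0.44, adjusted p = 7.4e-07) in Th17n cells and 1.63 (SE 0.37, adjusted p = 0.0029) in iTreg cells. Both calls held in every other fit. The difference between the effects was 1.79 (SE 0.58) and did not pass (adjusted p = 0.11). No Th17n vehicle library stood above the filter on low counts, which limits how the size of the Th17n change can be read.

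The 3 other peaks within 20 kb of Mir1983 each overlap a tRNA gene, n-TIaat10, n-TFgaa1 and n-TRtct3. They rose with DFMO in Th17n cells by log2 changes of 2.34, 1.77 and 1.37 (adjusted p = 3.6e-06, 0.0030 and 0.026). In iTreg cells their changes were 0.89, 1.08 and 0.64 (adjusted p = 0.054, 0.063 and 0.35). Because of this, the peaks that overlap any tRNA gene were then counted, a choice made after the Mir1983 values were seen. Of 142 tested tRNA peaks that are no member, 88 rose and 0 fell in Th17n cells (median log2 change 0.73), and 29 rose and 0 fell in iTreg cells (median 0.38). With vehicle, 1 of the 142 was higher and 86 were lower in Th17n than in iTreg cells (median −0.56). Mir1983 thus moved with tRNA peaks that hold no microRNA gene, and its counts cannot separate the microRNA from the tRNA. Reads from near-identical tRNA copies may also be assigned among copies, which makes the level of each copy uncertain. The other members that overlap a tRNA gene were Mir8105 and Mir760, and neither passed in a DFMO comparison.

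Mir484 lies beside the start of Marf1, a gene named for its part in meiosis and messenger RNA stability. Its peak (chr16:14159240-14160045) held 38.7, 27.6 and 26.3 CPM in Th17n vehicle and 51.4, 49.0 and 43.5 CPM in Th17n DFMO. In iTreg cells it held 32.1, 36.4 and 39.9 CPM with vehicle and 74.1, 64.3 and 72.4 CPM with DFMO. No DFMO library overlapped the vehicle libraries of its lineage. The log2 change was 0.94 (SE 0.17, adjusted p = 0.00025) in iTreg cells, held in every other fit, and 0.72 (SE 0.18, adjusted p = 0.0084) in Th17n cells. The Th17n call was lost after thinning (adjusted p = 0.080) and without animal 1 of Th17n DFMO or animals 2 or 3 of Th17n vehicle (0.083 to 0.10). The Marf1 promoter window (chr16:14159225-14159524, minus strand) shows 8 copies of GGGCGG in capitals, some overlapping, and neither CCAAT nor TGACGTCA.
Marf1 promoter: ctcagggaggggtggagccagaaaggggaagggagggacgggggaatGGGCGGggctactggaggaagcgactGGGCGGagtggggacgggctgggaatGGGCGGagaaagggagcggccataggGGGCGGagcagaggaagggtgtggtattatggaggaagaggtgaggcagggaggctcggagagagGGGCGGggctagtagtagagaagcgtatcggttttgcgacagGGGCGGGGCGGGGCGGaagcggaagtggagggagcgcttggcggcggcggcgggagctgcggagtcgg

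Mir3102 lies inside Arhgef17. Its peak held 21.2, 19.1 and 34.7 CPM in iTreg vehicle and 44.6, 57.3 and 48.7 CPM in iTreg DFMO. It held 39.6, 48.0 and 46.9 CPM in Th17n vehicle and 54.3, 55.0 and 56.4 CPM in Th17n DFMO. In both lineages the DFMO libraries were above the vehicle libraries, and iTreg vehicle was the low group. The change on the log2 scale was 0.98 (SE 0.19, adjusted p = 0.00082) in iTreg cells, held in every other fit, and 0.27 (SE 0.19, adjusted p = 0.41) in Th17n cells.

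Mir1934 lies beside the start of Mpdu1, a gene of dolichol-linked sugar use. Its peak held 28.3, 45.7 and 39.2 CPM in Th17n vehicle and 66.4, 67.3 and 67.5 CPM in Th17n DFMO. It held 79.8, 77.5 and 69.4 CPM in iTreg vehicle and 79.5, 98.9 and 104 CPM in iTreg DFMO. The Th17n groups did not overlap, and the iTreg groups did. On the log2 scale the change was 0.75 (SE 0.16, adjusted p = 0.0015) in Th17n cells, held in every other fit, and 0.33 (SE 0.14, adjusted p = 0.15) in iTreg cells.

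**Figure D3:**
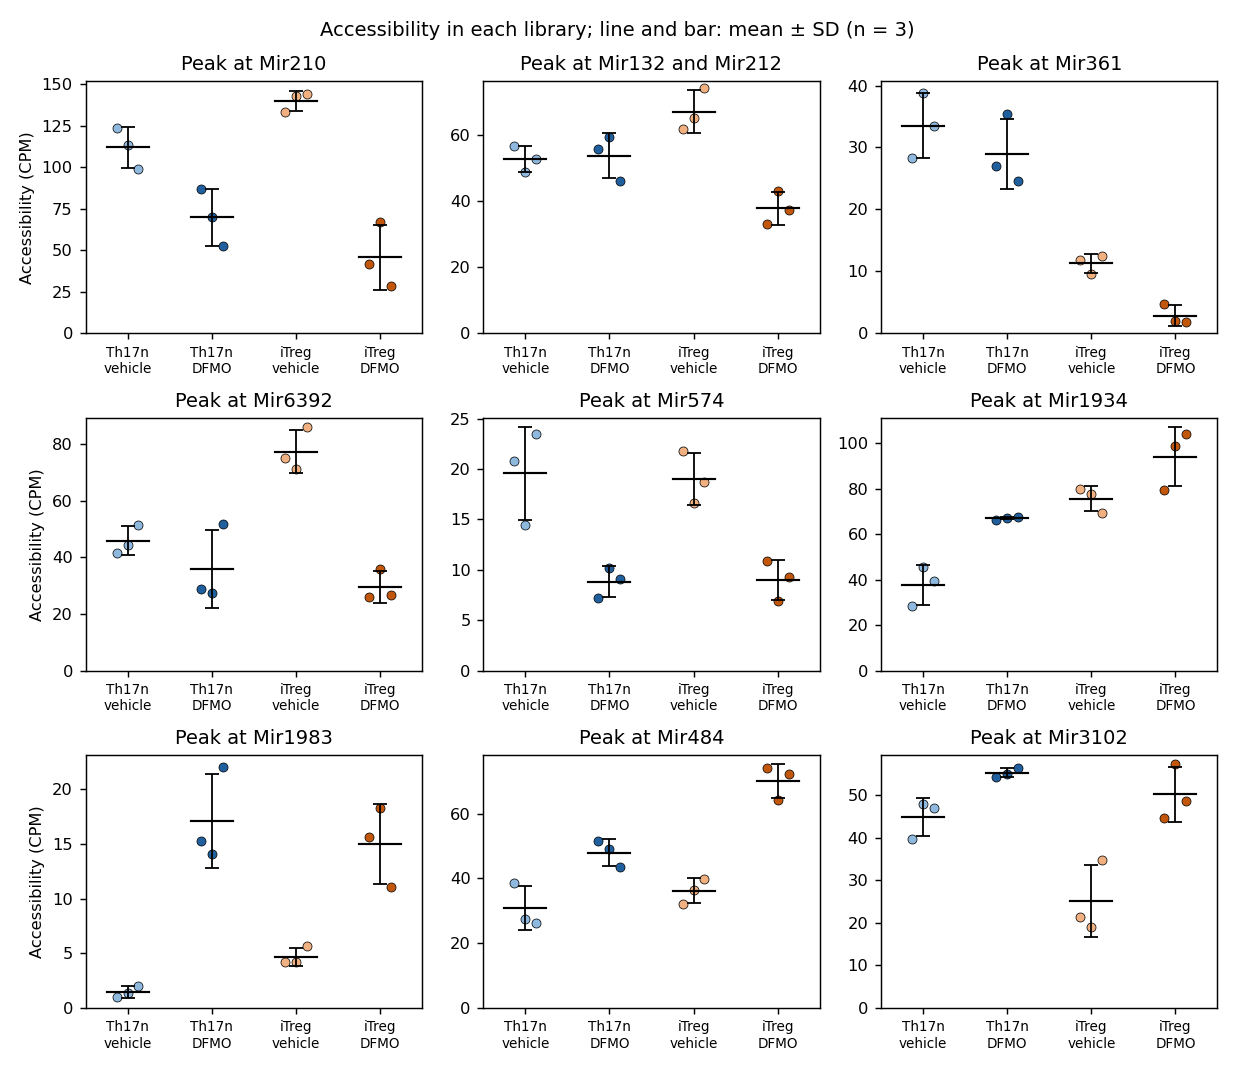
Accessibility (CPM) of 9 peaks at microRNA genes in each library, with the mean ± SD of each group (n = 3). Every panel starts at 0 and has its own scale. DFMO lowered Mir210 and Mir574 and raised Mir1983 and Mir484 in both lineages, while the fall at Mir361, Mir6392 and the Mir132 and Mir212 peak passed in iTreg cells.

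The other peaks that rose did so by smaller amounts. Mir5136, in Lbhd1 and over the small nucleolar RNA Snora57, rose by 0.62 (SE 0.19, adjusted p = 0.034) in Th17n cells and 0.64 (SE 0.18, adjusted p = 0.021) in iTreg cells. The Th17n call was lost without any 1 of the 6 Th17n libraries or animals 1 or 3 of iTreg DFMO (adjusted p 0.052 to 0.25). It was also lost with no low-count filter (0.057), with DESeq2 (0.058) and after thinning (0.27). The iTreg call was lost without animal 3 of iTreg DFMO or animals 2 or 3 of iTreg vehicle (0.083 to 0.19). In iTreg cells Mir1893 inside Epc1, a gene of the NuA4 acetyltransferase complex, rose by 0.50 (SE 0.12, adjusted p = 0.0067), lost without animal 3 of either iTreg group (0.061 to 0.066). Mir7648 at Alg10b rose by 0.45 (SE 0.15, adjusted p = 0.043), a call kept in 3 of 6 alternative fits. It was kept in 3 of the 12 fits without 1 library, those without animal 2 of iTreg DFMO, animal 1 of iTreg vehicle or animal 1 of Th17n vehicle (highest adjusted p 0.30).

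Among those that passed in Th17n cells, the peak of Mir2861 and Mir3960 beside Cdk9, the kinase of P-TEFb, rose by 0.44 (SE 0.11, adjusted p = 0.010). It was lost without animals 1 or 2 of Th17n DFMO or animals 1 or 3 of Th17n vehicle (0.068 to 0.17). Rises of 0.35 to 0.49 were called at Mir5133 in Glce, Mir1900 in Icam5, Gm38670 at Hspb6 and Mir6974 in Lta, which encodes lymphotoxin alpha (adjusted p 0.026 to 0.048). Each of these 4 was lost without any of the 3 Th17n DFMO libraries and without animals 1 or 3 of Th17n vehicle. Animal 2 of Th17n vehicle ended 3 of them as well, Mir5133 being the exception. Leaving out animal 3 of iTreg DFMO also ended all 4, animal 1 of iTreg DFMO ended Gm38670 and Mir6974, and animal 2 of iTreg vehicle ended Mir6974. The highest adjusted p in these fits was 0.31 for Mir5133, 0.16 for Mir1900, 0.29 for Gm38670 and 0.38 for Mir6974. In the other fits Mir6974 was lost in 5 of 6, the replicate block for animals among them, and passed with the compared groups only (highest adjusted p 0.11). Gm38670 and Mir1900 were lost with no low-count filter and after thinning (highest 0.077 and 0.0996), and Mir5133 with no filter and with DESeq2 (highest 0.051).

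Lineage separated more members than DFMO did. With vehicle, 8 of the 109 were higher and 34 lower in Th17n than in iTreg cells, where 44.6% of all tested peaks passed (25.2% higher, 19.3% lower). With DFMO, 5 were higher and 25 lower, where 37.2% passed (22.5% higher, 14.7% lower). The median log2 difference of members, Th17n minus iTreg, was −0.28 with vehicle and −0.25 with DFMO, against −0.072 and −0.005 for all tested peaks. Both medians of the members moved by less than 0.1 under another scaling. For all tested peaks at coding gene ends, where most members lay, the medians were −0.33 and −0.27, so the member medians are no result about the members. At an unadjusted p under 0.05 the counts of members were 48 and 44, against 22348 and 19990 of all 43726 tested peaks.

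Most of the lower calls lay at the ends of coding genes. Of the 64 tested members at coding gene ends, 0 were higher and 25 lower with vehicle, where 3.88% and 32.4% of all tested gene-end peaks were. With DFMO 0 were higher and 17 lower, where 3.93% and 24.9% of gene-end peaks were. Of the 27 tested members inside coding genes, 7 were higher and 5 lower with vehicle (25.9% and 18.5%), where 34.5% and 13.8% of all tested peaks inside coding genes were. The lower shares of gene-end members, 39.1% and 26.6%, were near those of gene ends at large, so they are no result about the members.

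**Figure D4:**
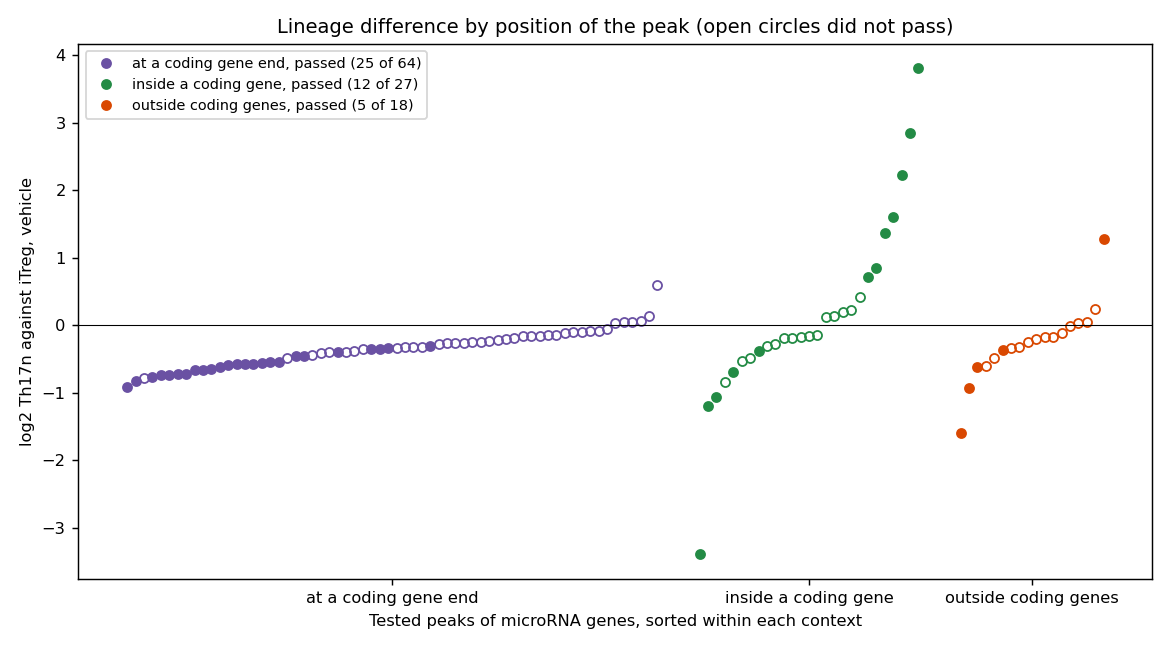
Log2 difference between Th17n and iTreg cells with vehicle for the 109 tested peaks at microRNA genes, sorted within 3 positions. Filled circles passed the test. At coding gene ends 25 of 64 passed and every one was lower in Th17n cells, while the highest values lay inside coding genes.

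Higher in Th17n cells, the Mir6964 peak inside C2cd2 (chr16:97877417-97877953) held 26.4, 21.3 and 22.9 CPM in Th17n vehicle and 2.07, 1.56 and 1.45 CPM in iTreg vehicle. With DFMO it held 25.7, 20.0 and 14.3 CPM in Th17n and 3.01, 1.98 and 3.70 CPM in iTreg cells. The lineages did not overlap, and the log2 difference was 3.80 (SE 0.38, adjusted p = 3.4e-11) with vehicle and 2.75 (SE 0.38, adjusted p = 1.4e-07) with DFMO. Neither iTreg group stood above the filter, so the peak was tested through the Th17n groups and a difference was built in. Mir361 was higher by 1.61 (SE 0.26, adjusted p = 2.3e-06) with vehicle and by 3.44 (SE 0.36, adjusted p = 1.8e-10) with DFMO. Not every iTreg DFMO library stood above the filter at Mir361, which limits how the size with DFMO can be read. Mir491 inside Focad was higher by 0.72 (SE 0.23, adjusted p = 0.010) and 1.37 (SE 0.26, adjusted p = 3.2e-05). Its vehicle call was lost without animal 1 of iTreg vehicle (adjusted p = 0.057).

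Other members higher with vehicle were Mir3102 (log2 difference 0.84), Mir7094-1 (1.27), Mir138-2 inside Nup93 (1.37), Mir6407 inside Xpnpep1 (2.23) and the peak of Mir297a-4, Mir669h and Mir669i inside Sfmbt2 (2.84). The last 3 stood above the filter in 1 group only, and the Sfmbt2 microRNAs belong to a repeated family whose reads may be shared among copies. Their levels are therefore uncertain. The groups overlapped at Mir138-2.

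Lower in Th17n cells, the Mir6998 peak inside Fubp3 (chr2:31612422-31613440) held 2.83, 5.79 and 4.29 CPM in Th17n vehicle and 38.3, 59.5 and 55.3 CPM in iTreg vehicle. With DFMO it held 2.93, 7.67 and 10.4 CPM in Th17n and 41.0, 64.8 and 32.9 CPM in iTreg cells. This was the widest gap on the lower side, with log2 differences of −3.40 (SE 0.30, adjusted p = 8.6e-13) and −2.83 (SE 0.32, adjusted p = 8.4e-10) and no overlap. In neither Th17n group did every library stand above the filter, which limits how this gap can be read. Next with vehicle were Mir1983 (−1.60), Mir1895 inside Cxxc4 (−1.20), Mir7228 (−1.07) and Mir203 with Gm51289 (−0.93). At Mir1983 no Th17n vehicle library stood above the filter, and the call was lost without animal 2 of that group (adjusted p = 0.059). Mir1895 was lost without that library or animal 3 of iTreg vehicle (highest adjusted p 0.081).
Mir7228 was lost without animal 3 of Th17n vehicle or animal 2 of iTreg vehicle (highest adjusted p 0.093). Mir203 was lost without animals 1 or 2 of Th17n vehicle or animal 3 of iTreg vehicle (highest adjusted p 0.11). All 4 calls were also lost after thinning, with adjusted p of 0.22 for Mir1983, 0.14 for Mir1895, 0.22 for Mir7228 and 0.11 for Mir203, and Mir203 was also lost with DESeq2.

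The remaining members lower with vehicle had log2 differences of −0.31 to −0.91. At gene ends they were Mir1934, Mir5133, Mir6973a at Ltb, Mir6392, Mir2861 with Mir3960, Gm51264, Mir762, Mir8101, Mir8105, Mir8102, Mir1900, Mir12191, Mir7036b, Mir5100, Mir6936, Gm38670, Mir8098, Mir219a-1 with Mir219c, Mir301b, Mir695, Mir8116, Mir3569, Mir6974, Mir8114 and Mir7238. Elsewhere they were Mir7655, Mir7671, Mir7687 and the Mir132 and Mir212 peak. Ltb and Lta encode the lymphotoxin chains and lie in the same stretch of the major histocompatibility complex. Of the 42 vehicle calls, 19 held in every other fit and without any single library, and 22 held without any single library. Among the 19 were Mir6964, Mir6998, Mir361, Mir3102, Mir1934, Mir5133, Mir6392, Mir762 and Mir2861 with Mir3960.

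With DFMO, Mir150 was 1 of the clearest differences. Its peak, 5 bp from the gene, held 4.88, 6.39 and 5.84 CPM in Th17n DFMO and 24.7, 12.4 and 18.2 CPM in iTreg DFMO. These groups did not overlap, and the log2 difference was −1.69 (SE 0.38, adjusted p = 0.00047), held in every other fit. With vehicle the peak held 13.2, 5.79 and 5.72 CPM in Th17n and 18.1, 10.9 and 9.35 CPM in iTreg cells, overlapping groups with a log2 difference of −0.79 (SE 0.36, adjusted p = 0.074). The change between the 2 differences did not pass (−0.90, SE 0.53, adjusted p = 0.47), and DFMO changed the peak in neither lineage by the test.

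Also lower with DFMO and not with vehicle were Mir6999 inside Dgkz (−0.88), Mir5103 (−0.74), Mir484 (−0.54), Mir6359 (−0.51), Mir1893 (−0.48), Mirlet7i (−0.47), Mir5136 (−0.46), Mir1945 (−0.43), Mir5130 (−0.40) and Mir1904 (−0.39). Higher only with DFMO was Mir210 (0.67, SE 0.18, adjusted p = 0.0031), where the groups overlapped. Its call was lost with DESeq2 and without animal 3 of iTreg DFMO or animal 1 of Th17n DFMO (highest adjusted p 0.18). Across the 2 lineage comparisons, which share animals but no library, 3 members were higher in both and 14 lower in both. The matching counts over all tested peaks were not taken. The Mir132 and Mir212 peak was lower in Th17n cells with vehicle (−0.37, adjusted p = 0.046) and higher with DFMO (0.51, adjusted p = 0.015). The vehicle call there was lost in 3 of 6 alternative fits and 8 of 12 fits without 1 library, and the DFMO call in 1 and 4 (highest adjusted p 0.85 and 0.10). Of the 30 calls with DFMO, 10 held in every fit, among them Mir6964, Mir6998, Mir361, Mir491, Mir150 and Mir5133.

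A fixed list held microRNAs known from T cells, the hypoxia response and proliferation. Most of them were outside the 200 bp window, as were microRNA genes at large. Of 78 listed microRNA genes in the annotation, 6 had a member peak (Mir210, Mir132, Mir212, Mir142, Mir150 and Mirlet7i), where 127 of all 1228 did. A peak lay within 1000 bp of 12 listed genes. The median distance to the nearest peak was 3613 bp. Mir142, which marks blood cells, was open at a like level in each group. Its means were 53.4 ± 11.6 CPM (SD, n = 3) in Th17n vehicle, 43.2 ± 5.33 in Th17n DFMO, 50.4 ± 2.85 in iTreg vehicle and 53.9 ± 9.16 in iTreg DFMO. The log2 change with DFMO was −0.27 (95% interval −0.63 to 0.09) in Th17n cells and 0.08 (−0.27 to 0.42) in iTreg cells.

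Mirlet7i held 71.7, 88.5 and 82.2 CPM in iTreg DFMO, above the 59.6, 54.2 and 68.2 CPM of iTreg vehicle without overlap. Its log2 change of 0.42 (SE 0.15) missed the threshold (adjusted p = 0.064). In Th17n cells the change was −0.09 (95% interval −0.40 to 0.21). With DFMO it was lower in Th17n than in iTreg cells by 0.47 on the log2 scale (adjusted p = 0.011), lost without animal 2 of Th17n DFMO (adjusted p = 0.051) and after thinning (0.057). Just outside the window, the peak 376 bp from Mir155 rose in Th17n cells from 45.5 to 68.0 CPM (log2 change 0.57, SE 0.16, adjusted p = 0.017). In iTreg cells its change was −0.20 (adjusted p = 0.49). The peak 479 bp from Mir191 and shared with Mir425 rose in Th17n cells by 0.44 (SE 0.13, adjusted p = 0.024) and changed by 0.16 in iTreg cells (adjusted p = 0.46). In Th17n cells 8.78% of all tested peaks passed with DFMO. Peaks near other listed genes, Mir148a (449 bp), Mirlet7g (845 bp) and Mir10a (982 bp), are not described here. The peaks given are therefore no account of listed microRNAs outside the window.

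The genes that make and use microRNAs were read from a list of 24, all with a peak in the gene or within 1 kb, 84 peaks in all and 76 tested. With DFMO in Th17n cells 2 of the 76 rose and 4 fell, and in iTreg cells 1 rose and 2 fell. These were 7.89% and 3.95% of the list, below the 8.78% and 8.56% of all tested peaks that passed. For the difference between the DFMO effects, edgeR called 0 of 76, with 8 at an unadjusted p under 0.05 and 0 with DESeq2. Over all tested peaks edgeR called 1.31%, and 6094 of 43726 had an unadjusted p under 0.05. With a share this low, 0 of 76 is no result about the list. The peaks at the starts of Drosha, Dgcr8, Xpo5, Dicer1 and Ago2 did not pass in either DFMO comparison. Their log2 changes ran from −0.00 for Ago2 to 0.51 for Xpo5 in Th17n cells and from −0.02 for Ago2 to 0.40 for Drosha in iTreg cells.

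Ago2 encodes the Argonaute that can cut its target. A peak inside it (chr15:73169754-73170879) fell in both lineages, from 85.6 to 48.3 CPM in Th17n cells (log2 change −0.85, SE 0.18, adjusted p = 0.0018) and from 35.8 to 14.6 CPM in iTreg cells (−1.37, SE 0.22, adjusted p = 5.9e-05). Both calls held in every other fit. Elsewhere in Ago2, 1 peak rose (0.64, adjusted p = 0.028) and 1 fell (−0.64, adjusted p = 0.027) in iTreg cells. The rise was lost without animal 2 of iTreg DFMO or animals 1 or 3 of iTreg vehicle, and at the fall the groups overlapped and the call was lost with DESeq2, after thinning and with the compared groups only (highest adjusted p 0.30).

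Tnrc6b, a gene of the GW182 proteins that bind Argonaute, held an internal peak that fell in Th17n cells from 25.4 to 8.50 CPM (−1.57, SE 0.33, adjusted p = 0.0015). Another rose from 35.7 to 59.4 CPM (0.71, SE 0.17, adjusted p = 0.0043), and both held in every other fit. Peaks in Tnrc6a (−1.35, adjusted p = 0.025) and Dis3l2 (−1.18, adjusted p = 0.037) fell and the Tnrc6c gene-end peak rose (0.40, adjusted p = 0.035) in Th17n cells, but each call was lost in at least 4 of the 12 fits without 1 library. Between lineages with vehicle 18 of the 76 were higher and 21 lower in Th17n cells, and with DFMO 21 were higher and 16 lower. Over all tested peaks 25.2% were higher and 19.3% lower with vehicle, and 22.5% and 14.7% with DFMO. Of the 23 tested at gene ends 0 were higher and 14 lower with vehicle, where 3.88% and 32.4% of all gene-end peaks were, a difference that was not tested. Among the 14 were Dgcr8 (−0.32), Xpo5 (−0.57) and Ago1 (−0.68).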

How the data were processed

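ATAC-seq was measured in 12 libraries. The authors deposited unscaled counts per peak, judged from the table's name and its whole numbers. The submitters' processing notes list the build mm10, Trimmomatic, FastQC, Bowtie2 and MACS2. No source used here states versions or settings, whether reads or shifted Tn5 cuts were counted, or whether libraries were pooled to call peaks. The labels' protocols give 37 bp read pairs. Peak starts are as deposited, since no source says if the first base is 0 or 1. Each of the 12 count columns matched 1 library, and 0 were left unused.

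All 48443 peaks were fitted together in edgeR 4.0.16 (R 4.3.3): filterByExpr with a minimum count of 10, which left 43726 peaks, TMM scaling, 4 group means, quasi-likelihood tests, and Benjamini-Hochberg adjustment over all tested peaks at 0.05. CPM are counts per 1000000 of the TMM-scaled total. An SE is the size of the log2 change over the square root of the F value. The model was tested on simulated data. DESeq2 1.42.0 was an alternative, and the closing section gives the others.

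The labels give the animal of each library, so same-numbered libraries are pairs. Deviations from group means correlated by −0.055 to 0.075 over the 18 pairs. For 7 of the 12 libraries, the best correlated library of another group came from the same animal. The fit reported has no block, and the block is an alternative. No 2 libraries of a group differed by sampling noise alone (lowest chi-square per degree of freedom 2.03). Intervals and p-values rest on 3 libraries per group.

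Named were all members that passed a comparison, members at listed microRNAs, the highest and widest, and machinery genes with a called DFMO peak. The listed microRNAs are known from T cells, the hypoxia response and proliferation. The members and lists were chosen with earlier results of these data known, so no list was tested. No genome was used, so no peak sequence is shown.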

Additional observations from a re-analysis of the deposited data

Results flagged for a closer look

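At 3 members the DFMO effect differed between the lineages by edgeR's quasi-likelihood test of the difference itself, with adjusted p-values over all tested peaks. The effect in Th17n cells minus the effect in iTreg cells was 1.84 (log2, SE 0.47, adjusted p = 0.032) at Mir361, 1.02 (SE 0.24, adjusted p = 0.019) at Mir210 and 0.89 (SE 0.23, adjusted p = 0.037) at the peak over Mir132 and Mir212. The 3 iTreg DFMO libraries were below the 3 iTreg vehicle libraries at each of these peaks, while the Th17n groups overlapped at Mir361 and at Mir132 with Mir212. None of these 3 differences kept its call in every alternative fit. At Mir361 not every iTreg DFMO library stood above the filter on low counts.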

How the results depend on the processing

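Alternatives were no low-count filter, DESeq2 size factors in edgeR, DESeq2, a replicate block for animals, libraries thinned to the lowest total, a fit of the compared groups only, other member rules, and each library left out. The cause of each change was not tested, except that other member rules and fits of fewer libraries change what is counted. No interaction can be fitted to 2 groups. Thinning lowers depth by construction, and it ended calls at high peaks (Mir7687, Mir7238 and Mir8102 with vehicle) as well as low ones. Of the calls at single members, 3 of 13 in Th17n and 6 of 14 in iTreg cells for DFMO, 0 of 3 for the difference of effects, 19 of 42 lineage calls with vehicle and 10 of 30 with DFMO held in every fit run.

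Same-numbered libraries come from the same animal. The replicate block moved the machinery peaks that rose in Th17n cells from 2 to 4 and the median lineage difference with DFMO to −0.22, and of the calls at members for DFMO it ended Mir6974 in Th17n cells.

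For DFMO in Th17n cells, members higher (9) became 4 with no filter, 4 thinned, 17 within 1000 bp of a gene and 1 without gene ends. Members lower (4) became 1 without gene ends, where the median (0.13) became −0.0021. Machinery peaks higher (2) became 1 with no filter, 1 with DESeq2 size factors, 1 with DESeq2 and 6 with the compared groups only, and lower (4) became 2 thinned and 7 with the compared groups only. With 1 library left out the ranges were 2 to 10 members higher, 2 to 4 lower, a median of 0.044 to 0.14, and 1 to 5 machinery peaks higher and 2 to 5 lower.

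For DFMO in iTreg cells, members higher (6) became 3 without gene ends, members lower (8) became 4 thinned and 3 without gene ends, and the median (0.029) became 0.063 with DESeq2. Machinery peaks higher (1) became 3 with DESeq2 size factors and 2 with DESeq2, and lower (2) became 1 with DESeq2, 1 thinned and 1 with the compared groups only. With 1 library left out the ranges were 3 to 7 members higher, 4 to 9 lower, a median of −0.022 to 0.079, and 0 to 1 machinery peaks higher and 1 to 3 lower.

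For lineage with vehicle, members higher (8) became 5 thinned, 5 with overlap required and 16 within 1000 bp, and lower (34) became 17 thinned, 53 within 1000 bp and 9 without gene ends. The median (−0.28) became −0.22 with DESeq2 size factors, −0.22 with DESeq2, −0.20 thinned and −0.18 without gene ends, and machinery peaks lower (21) became 10 thinned. With 1 library left out the ranges were 6 to 8 members higher, 21 to 38 lower and a median of −0.32 to −0.22.

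For lineage with DFMO, members higher (5) became 2 with overlap required and 10 within 1000 bp, and lower (25) became 12 thinned, 38 within 1000 bp and 8 without gene ends. The median (−0.25) became −0.29 with no filter, −0.20 thinned, −0.27 within 1000 bp and −0.16 without gene ends. Machinery peaks higher (21) became 12 thinned and lower (16) became 8 thinned. With 1 library left out the ranges were 3 to 7 members higher, 11 to 26 lower and a median of −0.28 to −0.19.

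For the difference of DFMO effects, members higher (3) became 1 with DESeq2 and 0 thinned, and the median (0.14) became 0.080 with DESeq2 size factors, 0.081 with DESeq2 and 0.077 thinned. With 1 library left out the ranges were 0 to 6 members higher, 0 to 1 lower and a median of 0.058 to 0.17.

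Of single values, the Th17n change at Mir132 and Mir212 (0.06) became −0.22 thinned. With 1 library left out it ranged from −0.062 to 0.11, below 0 without animals 1 or 2 of Th17n DFMO or animal 2 of Th17n vehicle. The iTreg change at Mir142 (0.08) became −0.052 thinned and ranged from −0.063, without animal 2 of iTreg DFMO, to 0.22. Neither had passed.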

Other observations

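Of the seeds carried by more than 1 arm at these peaks, GGCAGUG was shared by miR-34b-5p and miR-449c-5p, which lie under 2 peaks and are among 4 arms of the sequence table with it. AUCACUA was shared by miR-34b-3p and miR-34c-3p under 1 peak, and GUGGGAG by miR-6993-5p and miR-7008-5p under 2 peaks. Mir9-1 and Mir9-2 encode the same arms at 2 peaks. None of these peaks passed in a DFMO comparison, the Mir6993 peak not being tested.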
